A study of Mus musculus with 22 samples.

Results

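The genes described here encode the mitochondrial ribosomal proteins, taken as every gene of the array annotation whose symbol starts with Mrpl or Mrps followed by a number. Of 78 such symbols, 77 had a probe set that carried no other symbol and were analysed, out of 19935 genes tested in all. Mrpl53 was listed only on a probe set shared with Ccdc142 and was not analysed here. By current subunit assignments, 50 of the 77 belong to the large subunit, among them Mrps30 and Mrps18a despite their names, and 26 belong to the small subunit. Mrps36 met the rule by name but encodes a subunit of the 2-oxoglutarate dehydrogenase complex, and its values are kept apart from both subunits. The set was drawn up with the call for Mrpl2 described below already known.

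Mitochondrial ribosomes sit in the mitochondrial matrix and translate the few proteins encoded by mitochondrial DNA, all of them core subunits of the respiratory chain and the ATP synthase. Their ribosomal RNAs come from mitochondrial DNA, but their proteins are encoded in the nucleus, made in the cytosol and imported. Some of these proteins descend from bacterial ribosomal proteins and others were added later in evolution, and the added proteins form much of the outer shell of the particle. In brain, neurons and endothelial cells of the blood vessels are rich in mitochondria.

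Gene expression was measured in the hypothalamus of male C57bl6 mice aged 9 to 12 weeks on 22 Affymetrix mouse gene arrays. Mice lacking interleukin-6 (IL-6 KO), a cytokine needed for fever, and wild-type (WT) littermates from the same parental animals received 120 µg/kg lipopolysaccharide (LPS, a bacterial cell wall component) from E. coli or saline into the peritoneal cavity, and were killed 3 h later and perfused with saline. There were 7 WT and 7 IL-6 KO arrays after LPS and 4 WT and 4 IL-6 KO arrays after saline, each from 200 ng of RNA. The labels do not name the knockout allele and do not say that each array is a separate mouse, so the p-values measure the spread between arrays. The study asked which genes differ between WT and IL-6 KO mice after LPS.

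All values are on a log2 scale and were centred by the authors on the median of the 22 arrays for each probe set, so a value of 0.10 means 0.10 log2 units above the median array. They hold differences and no levels, and no gene is set against another by abundance; for the same reason the presence of hypothalamic marker genes could not be checked. Il6 itself, the targeted gene, lay between -0.17 and -0.11 in WT saline arrays, -0.16 and -0.08 in IL-6 KO saline arrays, -0.10 and 0.28 in WT LPS arrays and -0.01 and 0.61 in IL-6 KO LPS arrays. It rose with LPS in the IL-6 KO arrays by 0.36 (SE 0.08, limma adjusted p = 0.0193). In the WT arrays its difference with LPS was 0.21 (SE 0.08, limma adjusted p = 0.457). The LPS effect in IL-6 KO minus that in WT was 0.15 (SE 0.12) and did not pass the test. Which part of the gene the probe set covers and which part the knockout removes are not given in the sources used here, so the genotype labels were not checked by it, and WT and IL-6 KO name the arrays as labelled. In each comparison a gene was called where the Benjamini-Hochberg adjusted p of limma's moderated test, over all 19935 genes, lay under 0.05.

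The array titles carry numbers from 1 to 22, and genotype was unequally mixed with them. Arrays 1 to 11 held 5 WT LPS, 3 WT saline, 2 IL-6 KO LPS and 1 IL-6 KO saline arrays, and arrays 12 to 22 held 2, 1, 5 and 3. What the number stands for is not stated, and the 2 runs are called array blocks. In 6 arrays the value of Ttr, a gene of the choroid plexus, or of Gh or Prl, which encode pituitary hormones, exceeded 2. Ttr did so in WT LPS replicates 2 and 5 and WT saline replicate 1, all within arrays 1 to 11. Gh or Prl did so in IL-6 KO LPS replicates 3 and 5 and IL-6 KO saline replicate 2, all within arrays 12 to 22. Among these 6 arrays the kind of marker thus went with both genotype and array block, at the cut of 2. IL-6 KO LPS replicate 4 (array 15) fell just short of that cut, with Ttr at 1.98, and stayed among the other 16. IL-6 KO saline replicate 2 had Ttr at 1.23 beside its high Gh and Prl. Leaving these 6 arrays out takes only WT arrays from the first block and only IL-6 KO arrays from the second. The mean of the 77 genes ranged from -0.071 to 0.119 in those 6 arrays and from -0.089 to 0.103 in the other 16.

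Sequences before the transcription start were available for 68 of the 77 genes, from RefSeq on GRCm38.p6. They were searched on both strands for CCGGAAG, bound by ETS factors such as GABP, for GCATGCG, the core of the NRF1 motif, and for AGATGGC, the core of the YY1 motif, all of them motifs of nuclear genes for mitochondrial proteins. Within the window of 250 bases before to 50 after the start, the ETS letters were found in 25 of the 68 genes (36.8%) against 9.93% of all genes and 12.9% of protein-coding genes. The YY1 core was found in 12 (17.6%) against 7.31% and 6.95%, and the NRF1 core in 8 (11.8%) against 4.01% and 4.95%. A match is a description of letters and not a measured site. The 250 bases before the start are shown for Mrpl2, the gene called between genotypes, for Mrps18c and Mrpl32, which were among the 3 genes with the smallest p between array blocks, and for Mrpl36, which had the next smallest p after Mrpl2 between genotypes after LPS. Capitals mark the searched motifs on either strand. Mrpl2 (chr17:46645971-46646220, plus strand, the first of 3 overlapping windows) holds none of them, Mrps18c (chr5:100798509-100798758, plus strand) holds an ETS match, Mrpl32 (chr13:14613038-14613287, minus strand) holds 6 matches, 5 of the NRF1 core and 1 of the YY1 core, some of them overlapping on opposite strands, and Mrpl36 (chr13:73330759-73331008, plus strand) holds a YY1 match.
Mrpl2: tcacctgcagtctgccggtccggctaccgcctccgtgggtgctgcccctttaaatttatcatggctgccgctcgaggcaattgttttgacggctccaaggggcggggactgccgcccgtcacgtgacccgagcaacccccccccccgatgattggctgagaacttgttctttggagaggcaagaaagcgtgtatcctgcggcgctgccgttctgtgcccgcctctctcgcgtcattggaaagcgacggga
Mrps18c: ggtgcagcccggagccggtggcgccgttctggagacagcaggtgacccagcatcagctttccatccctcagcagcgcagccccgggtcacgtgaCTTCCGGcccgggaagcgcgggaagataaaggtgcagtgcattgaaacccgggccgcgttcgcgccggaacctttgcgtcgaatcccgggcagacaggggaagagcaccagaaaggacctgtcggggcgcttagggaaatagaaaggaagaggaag
Mrpl32: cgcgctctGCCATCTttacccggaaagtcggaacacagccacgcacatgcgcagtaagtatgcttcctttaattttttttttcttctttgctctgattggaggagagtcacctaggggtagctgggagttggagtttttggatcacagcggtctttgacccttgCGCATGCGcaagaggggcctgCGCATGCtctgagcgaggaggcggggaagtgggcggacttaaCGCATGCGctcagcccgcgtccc
Mrpl36: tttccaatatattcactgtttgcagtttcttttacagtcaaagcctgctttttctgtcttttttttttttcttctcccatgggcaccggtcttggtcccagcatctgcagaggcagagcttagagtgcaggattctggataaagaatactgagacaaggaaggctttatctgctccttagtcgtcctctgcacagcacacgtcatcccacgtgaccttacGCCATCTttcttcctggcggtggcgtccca

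No mitochondrial ribosomal protein gene was called for LPS against saline in either genotype. In WT 0 of the 77 were called where 1.8% of all genes were (1.42% higher and 0.376% lower), and in IL-6 KO 0 of the 77 where 1.34% were (1.08% higher and 0.256% lower). At an unadjusted p under 0.05 in WT, 0 of the 77 were higher and 2 lower, against 3.38% and 3.04% of all genes. At the same p in IL-6 KO, 1 was higher and 0 lower, against 3.04% and 2.79% of all genes. The median difference over the 77 genes was -0.010 in WT, where it was -0.011 over all genes, and 0.013 in IL-6 KO, where it was -0.009 over all genes. In WT, 28 of the 77 had a difference above 0 against 42.5% of all genes, and in IL-6 KO 48 of the 77 against 43.4%.

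The genes closest to a response were single genes with small differences. In WT, Mrpl2 lay 0.16 lower after LPS (SE 0.054, adjusted p = 0.229), and Mrps18b, one of 3 related S18 proteins of vertebrate mitochondria, 0.13 lower (SE 0.056, adjusted p = 0.592). Mrps10, a small subunit protein with a bacterial homologue, had the largest difference in the other direction, 0.22 (SE 0.12, adjusted p = 0.932), followed by Mrpl41 at 0.11 (SE 0.078, adjusted p = 0.999668). In IL-6 KO, Mrpl55 of the large subunit lay 0.085 higher (SE 0.039, adjusted p = 0.783), and Mrpl14, which lies at the interface of the subunits, 0.12 higher (SE 0.065, adjusted p = 0.953). In the same comparison Mrps18b lay 0.077 lower (SE 0.056, adjusted p = 0.999773) and Mrps33 0.097 lower (SE 0.076, adjusted p = 0.999773). Mrpl2 lay 0.023 higher after LPS in IL-6 KO (SE 0.054, 95% interval -0.089 to 0.14), and in the IL-6 KO saline group its values spread from -0.14 to 0.19.

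After LPS, Mrpl2 was higher in IL-6 KO than in WT, and it was the only one of the 77 genes called in that comparison, in which 0.0401% of all genes were called (8 genes) and 0.0201% were called higher (4 genes). Mrpl2 encodes the protein uL2m, a conserved protein of the large subunit close to its peptidyl transferase centre. In the 7 WT LPS arrays its values were -0.23 at the lowest, -0.19 at the median and -0.07 at the highest, and in the 7 IL-6 KO LPS arrays -0.05, 0.07 and 0.18. The 2 groups did not overlap, though by a narrow margin; 0.0752% of all genes were higher without overlap in this comparison, and Mrpl2 was the only member among them. In the 4 WT saline arrays Mrpl2 lay at -0.05, 0.00, 0.00 and 0.03, all above the WT LPS arrays; 0.712% of all genes were lower after LPS without overlap in WT. In the 4 IL-6 KO saline arrays it lay at -0.14, 0.06, 0.11 and 0.19, overlapping all other groups.

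The group means of Mrpl2 were -0.17 ± 0.067 (SD, n = 7) in WT LPS, 0.079 ± 0.082 (n = 7) in IL-6 KO LPS, -0.004 ± 0.033 (n = 4) in WT saline and 0.056 ± 0.14 (n = 4) in IL-6 KO saline. IL-6 KO exceeded WT after LPS by 0.25 (SE 0.046, 95% interval 0.15 to 0.34, limma adjusted p = 0.0487), which is a 1.19-fold difference. The difference was 0.21 with the array block as a term (SE 0.045, adjusted p = 0.195), 0.21 within arrays 1 to 11 (SE 0.062) and 0.24 within arrays 12 to 22 (SE 0.068). It was called in none of these 3 fits. Without the 6 arrays high in choroid plexus or pituitary genes it was 0.24 (SE 0.054, adjusted p = 0.637), and the call was lost, with 0.00502% of all genes called; over the 77 genes the median was then 0.055, with 66 above 0. The call was also lost when any 1 of 18 of the 22 arrays was left out (difference 0.23 to 0.27 and adjusted p 0.0115 to 0.175 over all 22), and stayed only without IL-6 KO LPS replicate 1, IL-6 KO saline replicate 1 or 2, or WT LPS replicate 7.

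After saline the difference between genotypes in Mrpl2 was 0.061 (SE 0.061, 95% interval -0.066 to 0.19). The LPS effect in IL-6 KO minus that in WT was 0.19 (SE 0.077, adjusted p = 0.999994), so the test of the difference itself did not pass. The comparison between genotypes after LPS and that of LPS with saline in WT share the 7 WT LPS arrays, in which Mrpl2 was lowest. Averaged over both treatments with the block as a term, IL-6 KO exceeded WT by 0.11 (SE 0.039, adjusted p = 0.838). Among all alternatives run for the comparison after LPS, the difference in Mrpl2 stayed between 0.21 and 0.27.

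**Figure D1:**
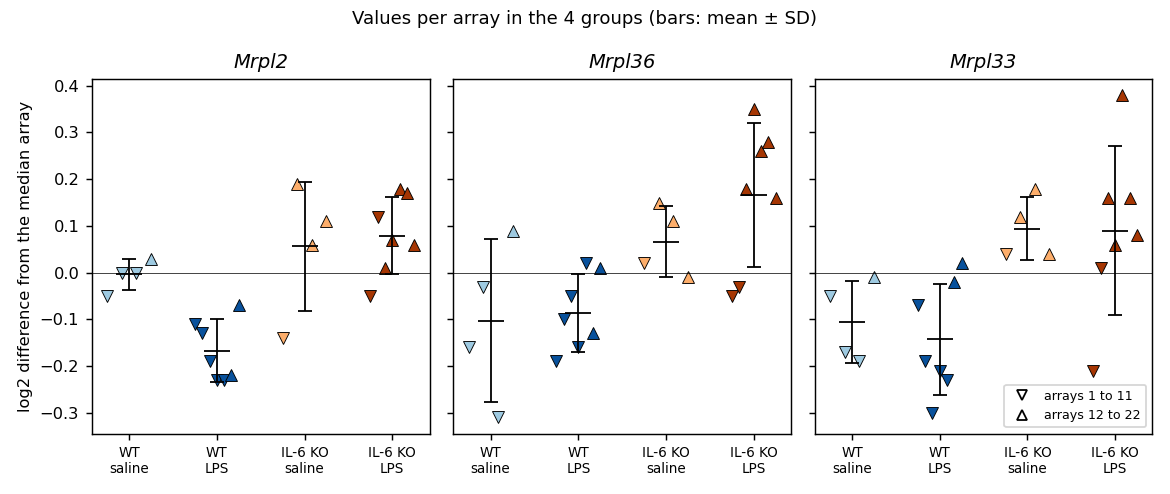
Values of Mrpl2, Mrpl36 and Mrpl33 per array (y axis, log2 difference from the median array) in the 4 groups (x axis), with the mean ± SD as bars; downward triangles are arrays 1 to 11 and upward triangles arrays 12 to 22. For Mrpl2 the WT LPS arrays all lie below the IL-6 KO LPS arrays, whichever the block, whereas for Mrpl36 the IL-6 KO LPS arrays of arrays 1 to 11 lie among the WT arrays.

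None of 7 genes near Mrpl2 on chromosome 17 was called between genotypes after LPS, where 0.0401% of all genes were called. At that share, no call among 7 genes says little about them. Klc4, a kinesin light chain gene next to Mrpl2 on the opposite strand, differed between genotypes after LPS by 0.034 (SE 0.042, adjusted p = 0.784). The other 6 nearby genes examined, Cul7, Rrp36, Ptk7, Klhdc3, Mea1 and Srf, had differences between -0.094 and 0.018 with adjusted p of 0.601 or more.

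The remaining members lay mostly higher in IL-6 KO after LPS, by amounts that did not pass the test and that moved with the array blocks. The counts that follow are over all 77 genes, Mrpl2 included. Of the 77 genes, 66 had a difference above 0 against 48.3% of all genes, and the median difference was 0.083 against -0.002. At an unadjusted p under 0.05, 28 were higher and 0 lower, where 7.19% of all genes were higher and 4.18% lower. The large subunit had a median of 0.095 over its 50 genes and the small subunit 0.053 over its 26. Genes with a bacterial homologue (46) had a median of 0.072 and those specific to mitochondria (30) 0.094. In arrays 12 to 22 alone 68 of the 77 lay above 0 (46.7% of all genes), with a median of 0.12. In arrays 1 to 11 alone 30 of the 77 did (55.3% of all genes), with a median of -0.014. With the block as a term the median was 0.047, with 66 of the 77 above 0 (52.1% of all genes) and 0 called (0.01% of all genes). Within arrays 1 to 11 there were 2 IL-6 KO LPS arrays and within arrays 12 to 22 there were 2 WT LPS arrays. The difference between the blocks in the genotype difference after LPS, added after the data were seen, had a median of 0.14 over the 77 genes against -0.014 over all genes; 65 of the 77 lay above 0 against 45.2% of all genes. By limma 0 of the 77 and 0.0% of all genes were called for it, and at an unadjusted p under 0.05 17 of the 77 were higher and 1 lower, against 2.78% and 2.88% of all genes.

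Mrpl36, Mrpl33 and Mrps31 had the smallest p after Mrpl2 and are named here after their values were seen. Mrpl36, a small zinc-binding protein of the large subunit, had a difference of 0.25 (SE 0.065, adjusted p = 0.233). Its 7 IL-6 KO LPS arrays had values of -0.05 and -0.03 in arrays 1 to 11 and 0.16, 0.18, 0.26, 0.28 and 0.35 in arrays 12 to 22, against -0.19 to 0.02 in the 7 WT LPS arrays. All 5 of the later IL-6 KO LPS arrays thus lay above every WT LPS array and the 2 earlier ones did not. Its difference was 0.059 within arrays 1 to 11 (SE 0.078) and 0.31 within arrays 12 to 22 (SE 0.071).

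Mrpl33, also of the large subunit, had a difference of 0.23 (SE 0.067, adjusted p = 0.288), 0.15 with the block as a term (SE 0.054). Its values ran from -0.21 to 0.38 in IL-6 KO LPS and from -0.30 to 0.02 in WT LPS, and the groups overlapped. After saline its 4 IL-6 KO arrays, 0.04 to 0.18, lay above its 4 WT arrays, -0.19 to -0.01; 1.78% of all genes were higher without overlap in that comparison. Mrpl33 lies on chromosome 5, as does Il6, with 47 tested genes between them; Mrpl1, Mrps18c and Mrps17 lie on the same chromosome with 383 or more in between. Mrps31, of the small subunit, had a difference of 0.17 (SE 0.053, adjusted p = 0.330). With array quality weights, where 3.08% of all genes were called, 8 members were called in this comparison, Mrpl2, Mrpl36, Mrpl33, Mrps31, Mrps14, Mrpl30, Mrpl21 and Mrpl47. Without IL-6 KO LPS replicate 1, where 0.236% of all genes were called, Mrpl2, Mrpl33 and Mrps31 were called.

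**Figure D2:**
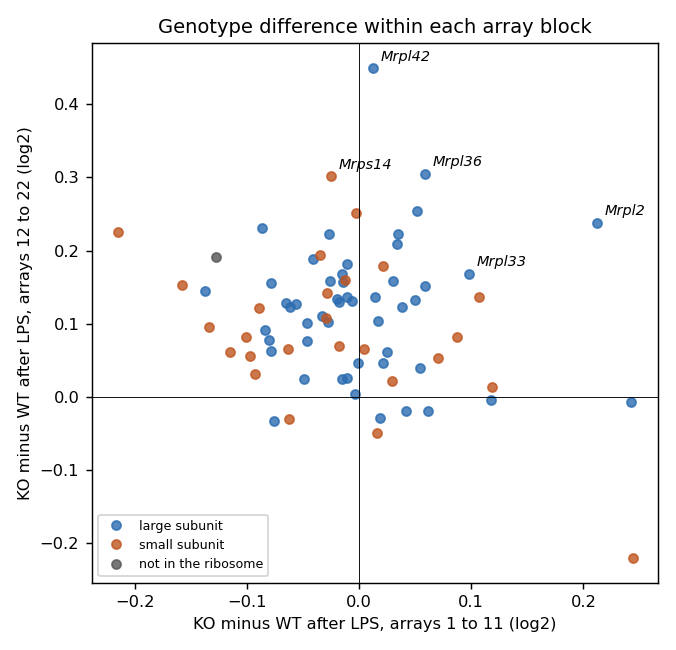
Difference between IL-6 KO and WT after LPS for each of the 77 genes within arrays 1 to 11 (x axis, log2, 2 IL-6 KO against 5 WT arrays) and within arrays 12 to 22 (y axis, log2, 5 against 2 arrays), coloured by subunit. Most genes lie above 0 on the y axis (68 of 77) and 30 do so on the x axis; Mrpl2 lies high on both.

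After saline, none of the 77 genes was called between genotypes (0.00502% of all genes were called), with 7 higher and 0 lower at an unadjusted p under 0.05 (2.95% and 2.21% of all genes). The median difference was 0.040 against -0.002 over all genes, and 54 of the 77 lay above 0 against 48.9%. With the block as a term the median was 0.014. Mrps27, a small subunit protein with pentatricopeptide repeats, had the smallest p, at 0.21 higher in IL-6 KO (SE 0.077, adjusted p = 0.840). Mrps23 lay 0.16 higher (SE 0.071), Mrpl14 0.11 lower (SE 0.073) and Mrpl16 0.093 lower (SE 0.065), each at an adjusted p of 0.840. Averaged over both treatments with the block as a term, none of the 77 was called either (0.015% of all genes), with 6 higher and 0 lower at an unadjusted p under 0.05 (3.88% and 1.95% of all genes). Its median was 0.032 against 0.003 over all genes, and 60 of the 77 lay above 0 against 52.8%. Mrps34 lay 0.12 higher in that comparison (SE 0.042, adjusted p = 0.838), Mrpl16 0.051 lower (SE 0.044) and Mrpl40 0.035 lower (SE 0.041).

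For the LPS effect in IL-6 KO minus that in WT, limma called 0 of the 77 and 0.0% of all genes, with 2 members higher and 0 lower at an unadjusted p under 0.05 (0.888% and 0.752% of all genes). Those 2 were Mrpl14, at 0.24 (SE 0.092), and Mrpl2. In the opposite direction Mrps27 had -0.11 (SE 0.096) and Mrps33 had -0.11 (SE 0.11), all at an adjusted p of 0.999994. The median over the 77 was 0.034 against 0.00 over all genes, and 58 lay above 0 against 49.8%.

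The array block was the contrast in which most members were called. With the 4 groups held in the fit, 23 of the 77 genes were higher and 4 were lower in arrays 12 to 22, together 35.1% where 21.5% of all genes were called; 10.9% of all genes were higher and 10.6% lower. The median difference was 0.079 against -0.010 over all genes, and 58 of the 77 lay above 0 against 44.5%. In the large subunit 16 of 50 were higher and 4 lower, with a median of 0.069, and in the small subunit 6 of 26 were higher and 0 lower, with a median of 0.086. Of the genes with a bacterial homologue 14 of 46 were higher and 3 lower, and of those specific to mitochondria 8 of 30 were higher and 1 lower. Mrps36, outside the ribosome, was higher too, by 0.19 (SE 0.050). Both blocks hold 7 LPS and 4 saline arrays, and the genotypes are unequally spread over them. Without the 6 arrays high in choroid plexus or pituitary genes, 16 of the 77 were called higher and 2 lower, with a median of 0.078, where 16.7% of all genes were called in either direction.

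Mrps14, a protein of the head of the small subunit, had the largest called difference, 0.39 (SE 0.063, adjusted p = 0.000147), or 1.31-fold. Its values ran from -0.39 to 0.00 in arrays 1 to 11 and from -0.14 to 0.43 in arrays 12 to 22, where 10 of the 11 arrays lay above 0.10 and WT LPS replicate 6 at -0.14. The 3 genes with the next smallest p were Mrps18c, an S18 protein of the small subunit, at 0.25 (SE 0.041, adjusted p = 0.000176), Mrpl32, a zinc-binding protein that is processed by a protease of the inner membrane before assembly, at 0.31 (SE 0.051, adjusted p = 0.000193), and Mrpl38 below. Mrpl32 lay between -0.25 and 0.01 in arrays 1 to 11 and between 0.00 and 0.43 in arrays 12 to 22. Mrps18c lay between -0.28 and 0.04 and between -0.01 and 0.25, so that for both genes the blocks overlapped only in a narrow range near 0.

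The other 7 of the 10 higher genes with the smallest p were all of the large subunit. Mrpl44, which resembles ribonuclease III, differed by 0.25 (SE 0.051), and Mrpl41 by 0.22 (SE 0.039). Mrpl21 differed by 0.21 (SE 0.046), Mrpl33 by 0.19 (SE 0.045), Mrpl24 by 0.18 (SE 0.0395), Mrpl35 by 0.16 (SE 0.040) and Mrpl27, a protein near the peptidyl transferase centre, by 0.15 (SE 0.037). Their adjusted p lay between 0.000375 and 0.00628. The other 13 higher genes, Mrps36 included, had differences between 0.10 and 0.20.

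The 4 lower genes were all of the large subunit. Mrpl38, which is specific to mitochondria and lies in the central protuberance, was lower by 0.21 in arrays 12 to 22 (difference -0.21, SE 0.037, adjusted p = 0.000271). It lay between -0.03 and 0.16 in arrays 1 to 11 and between -0.24 and 0.03 in arrays 12 to 22, where 10 of the 11 arrays lay below 0. Mrpl22, which lines the exit tunnel of the growing chain, differed by -0.24 (SE 0.073, adjusted p = 0.0190) and was not called without IL-6 KO LPS replicate 2 (adjusted p = 0.0743) or WT saline replicate 4 (adjusted p = 0.0763). Mrpl4, another protein of the exit tunnel, differed by -0.15 (SE 0.051, adjusted p = 0.0377) and Mrpl20 by -0.14 (SE 0.047, adjusted p = 0.0365). Centring each array on its median, quantile normalization or leaving out the 6 arrays high in choroid plexus or pituitary genes ended the calls of Mrpl4 and Mrpl20 and kept both below 0.

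Mrpl2 differed between the blocks by 0.085 (SE 0.038, 95% interval 0.0069 to 0.16, adjusted p = 0.119) and was not called; without WT LPS replicate 6 it was (adjusted p = 0.0460). Without IL-6 KO LPS replicate 2 the count of called members was 17 in place of 27, and the share of all genes called was 16.5% in place of 21.5%. Within the groups taken one by one, 64 of the 77 genes were higher in the later block in IL-6 KO LPS, 57 in WT saline, 48 in WT LPS and 42 in IL-6 KO saline, where 41.8%, 44.6%, 48.7% and 53.2% of all genes were. The 4 median differences were 0.15, 0.067, 0.037 and 0.023. Of the 23 genes called higher, at least 21 were higher in each of the 4 groups, and the 4 called lower were lower in each; these arrays are the ones on which they were called.

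**Figure D3:**
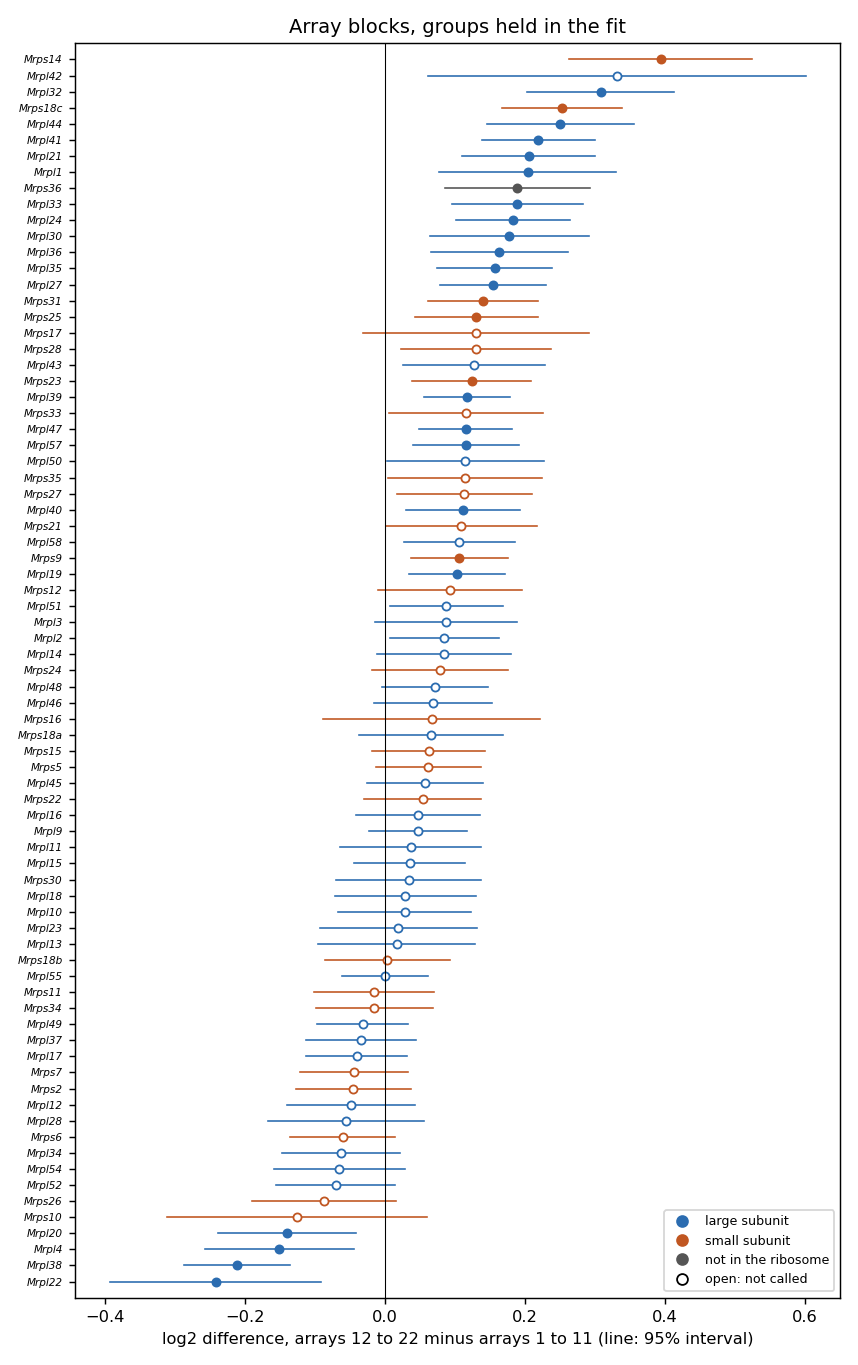
Difference between arrays 12 to 22 and arrays 1 to 11 (x axis, log2) for each of the 77 genes (y axis, ordered by difference), with the groups held in the fit; lines are 95% intervals, filled points were called and colours mark the subunit. At the top Mrps14 reaches 0.39 and at the bottom Mrpl22 -0.24, and 58 points lie above 0.

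Some markers of other cell types were also called between the blocks, where 21.5% of all genes were called. Of 9 oligodendrocyte markers measured 3 were called lower in arrays 12 to 22 (Sox10 at -0.21, Mobp at -0.27 and Olig2 at -0.14), 0 lay above 0, and their median difference was -0.14. Their mean per array ran from -0.13 to 0.16 in arrays 1 to 11 and from -0.26 to 0.21 in arrays 12 to 22. Of 10 neuronal markers 0 were called higher and 2 lower (Tubb3 at -0.36 and Rbfox3 at -0.24), of 8 astrocyte markers 1 was higher (Aqp4 at 0.23), of 7 microglial markers none was called, of 6 pericyte markers 1 was higher and 2 lower, and of 9 endothelial markers 0 were higher and 1 lower. Of 14 hypothalamic markers 2 were higher (Pmch at 0.245 and Crh at 0.14) and 2 lower (Hmx2 at -0.13 and Trh at -0.23), and none was called of 8 choroid plexus, 7 pituitary, 7 thalamic and 4 blood markers. Their part in the difference of the mitochondrial ribosomal protein genes was not tested. In bulk tissue fewer cells of a type and less RNA per cell cannot be told apart. With LPS, 8 of the 9 endothelial markers were called lower in WT and 7 of the 9 in IL-6 KO. Of all genes 0.376% and 0.256% were called lower in these comparisons. The mean of the 9 endothelial markers per array was 0.29 to 0.47 after saline and -0.23 to -0.15 after LPS in WT. In IL-6 KO it was 0.35 to 0.52 after saline and -0.11 to 0.12 after LPS. The microglial marker Cx3cr1 was also called lower with LPS in WT (-0.456, SE 0.082, limma adjusted p = 0.00123), and not in IL-6 KO. The mean of the 7 microglial markers had a median of 0.04 in WT saline and -0.07 in WT LPS arrays. In IL-6 KO that median was 0.02 after saline and 0.05 after LPS. The part of the endothelial and microglial markers in the difference of Mrpl2 between genotypes was not tested.

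Averaged over the 77 genes, with no group held, arrays 1 to 11 lay lower in the mean than arrays 12 to 22. Arrays 1 to 11 are mostly WT and arrays 12 to 22 mostly IL-6 KO. The mean was -0.044 ± 0.031 (SD, n = 11) in arrays 1 to 11 and 0.042 ± 0.056 (n = 11) in arrays 12 to 22. Arrays 1 to 11 lay between -0.089 and 0.008 and arrays 12 to 22 between -0.083 and 0.12, and the one far below the rest of the later block was WT LPS replicate 6 (array 12, -0.083). The mean of all genes stayed between -0.023 and 0.028. By group, the mean was -0.045 ± 0.034 in WT LPS (n = 7), -0.023 ± 0.046 in WT saline (n = 4), 0.040 ± 0.076 in IL-6 KO LPS (n = 7) and 0.026 ± 0.030 in IL-6 KO saline (n = 4). Within IL-6 KO LPS it was -0.060 ± 0.041 in the 2 earlier arrays and 0.081 ± 0.035 in the 5 later ones. Within WT LPS it was -0.052 ± 0.014 in the 5 earlier arrays and -0.030 ± 0.075 in the 2 later ones. Within WT saline it was -0.039 in the 3 earlier arrays and 0.024 in the 1 later one. Within IL-6 KO saline it was 0.008 in the 1 earlier array and 0.032 in the 3 later ones. Between 13 and 66 of the 77 genes lay above 0 on an array.

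**Figure D4:**
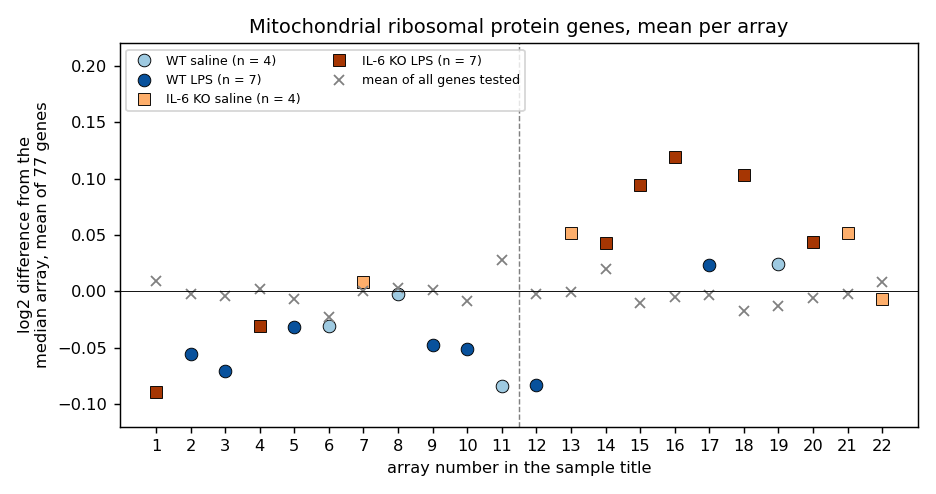
Mean of the 77 mitochondrial ribosomal protein genes on each array (y axis, log2 difference from the median array) against the array number (x axis), with groups as symbols, crosses for the mean of all 19935 genes and a dashed line between the blocks. Arrays 1 to 11 lie between -0.089 and 0.008; from array 13 on, all but 1 array lie above 0, and array 12 lies at -0.083.

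The spread over arrays differed from member to member. The SD over the 22 arrays ran from 0.057 for Mrpl49 to 0.37 for Mrpl42, with a median of 0.11, and the median over all genes was 0.105; 44 of the 77 lay above it. Mrpl49 and Mrpl42 are specific to mitochondria and belong to the large subunit. Mrpl49 lay between -0.09 and 0.12 on all arrays. Mrpl42 lay between -0.48 and 0.88, with IL-6 KO LPS arrays at both ends of the later block (-0.47 and 0.88); its difference between genotypes after LPS was 0.38 (SE 0.16, adjusted p = 0.403) and that between blocks 0.33 (SE 0.13, adjusted p = 0.0744), neither called.

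After the group means and the block were removed, pairs of members varied together across the 22 arrays to a modest degree: Pearson's r had a median of 0.20 over 2926 pairs, 0.22 between large subunit genes, 0.13 between small subunit genes and 0.18 between the subunits. Members paired with nuclear genes of the respiratory chain had a median of 0.29, with cytosolic ribosomal proteins 0.22 and with mitochondrial translation factors 0.15, and with all genes -0.031. All pairs come from the same 22 tissue samples and hybridisations, and the values are a description. Mrps17 had the highest median r with the other members (0.41) and Mrps10 the lowest (-0.28). The members most like Mrpl2 were Mrpl44 (r = 0.57) and Mrpl30 (0.54), and Mrpl38 was most unlike it (-0.56).

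Of the 8 genes with a pair of probe sets, agreement differed from gene to gene. For Mrpl23, Mrps36 and Mrps33 the pair correlated at 0.975, 0.967 and 0.936 over the 22 arrays. For Mrps5, the correlation was 0.127, and the difference between genotypes after LPS was 0.092 by one probe set and -0.038 by the other. The pairs of Mrpl47 (0.311) and Mrpl51 (0.335) also agreed poorly, and the value of these genes is a mean of unlike probe sets. The remaining 69 genes, Mrpl2 among them, rest on 1 probe set.

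Among the other listed genes of mitochondrial translation and of its regulators 1 gene was called with LPS and 0 between genotypes. Of all genes 1.8% were called with LPS in WT and 1.34% in IL-6 KO. Between genotypes 0.0401% were called after LPS and 0.00502% after saline. The lists are read between blocks against the 21.5% of all genes called there (10.9% higher and 10.6% lower). The gene was Myc, a transcription factor that drives ribosome and mitochondrial biogenesis, which rose with LPS in WT by 0.28 (SE 0.058, adjusted p = 0.00593) and in IL-6 KO by 0.25 (SE 0.058, adjusted p = 0.0230); 0 of the other 16 measured regulators of mitochondrial DNA expression and biogenesis were called in these LPS comparisons. The lists, like the members, were chosen with earlier results of these data known. Of 4 genes of mitochondrial ribosomal proteins whose symbols do not start with Mrpl or Mrps, 2 were higher in arrays 12 to 22 and 0 lower, Dap3 at 0.13 and Ptcd3 at 0.15. Of 15 mitochondrial translation factors 7 were higher and 0 lower (46.7% called), led by the elongation factor genes Guf1 at 0.29 and Gfm1 at 0.22. Of 24 assembly factors 3 were higher (Fastkd2 at 0.24) and 2 lower (Mpv17l2 at -0.24), which is 20.8% and near the share of all genes. Of 16 mitochondrial tRNA synthetases 3 were higher and 2 lower (31.2%). Of the 17 regulators 4 were higher, with Ppargc1a, a coactivator of mitochondrial biogenesis, at 0.295 and Tfam, the packaging factor of mitochondrial DNA, at 0.27, and 2 were lower (35.3%).

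The mitochondrial ribosome makes partners of many nuclear-encoded subunits of the respiratory chain and ATP synthase. Of 71 measured genes for nuclear-encoded subunits, whether or not they have such partners, 26 were higher and 2 lower in arrays 12 to 22. Together 39.4% were called against 21.5% of all genes, with a median difference of 0.097 against -0.010. Between genotypes after LPS 66 of the 71 lay above 0, against 48.3% of all genes, with a median of 0.16, and 0 were called, against 0.0401% of all genes. Of 54 cytosolic ribosomal protein genes, which build the ribosome outside mitochondria, 15 were higher and 8 lower between the blocks (42.6% called), with a median of 0.049 and the largest difference at -0.43 for Rpl36. Between genotypes after LPS 41 of the 54 lay above 0, against the same 48.3%, with a median of 0.088, and 0 were called. Products of mitochondrial DNA were not analysed here.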

How the data were processed

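Total RNA of mouse hypothalamus was hybridised to 22 Affymetrix arrays. The deposited log2 values of 28815 probe sets were made by the authors with RMA, per the submitters' processing notes, and had been centred on the median of the 22 arrays; that the log base is 2 is taken from the method and not stated. No column was left unused. Of the probe sets 21780 carried 1 gene symbol, 1605 several and 5430 none; those with 1 symbol were averaged per gene, giving 19935 genes. Of the 21780, 21689 matched RefSeq by gene ID.

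A linear model with 1 mean per group was fitted to all genes with limma 3.58.1 (R 4.3.3), with moderated two-sided tests and Benjamini-Hochberg adjustment over all genes. Array block contrasts added 1 term for the block. The fit was also run on simulated data with planted changes, independent noise per gene and no difference between blocks. That run says nothing on the mixing of genotype with array block. Precision is limited by the number of arrays. The genes and lists were chosen with earlier results of these data known. Named are Mrpl2 everywhere, called members (up to 6 per direction, 10 for blocks), otherwise the 2 members with the smallest p per direction, and those of largest and smallest SD. Alternatives were centring, quantile normalization, array weights, robust moderation, fewer genes or arrays, and block or linear array number terms. Sequences are from RefSeq GRCm38.p6.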

Additional observations from a re-analysis of the deposited data

Results flagged for a closer look

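Among 116 sets of values in single groups, of 28 named genes and of the mean over all members, 3 held an array that lay far from the others, where chance gives about 1 in 20. Mrpl38 lay at -0.24 in WT LPS replicate 7, and at 0.03 to 0.07 in the other 6 arrays of that group. Mrps18b lay at -0.04 in IL-6 KO saline replicate 4 against 0.10 to 0.11 in the other 3 arrays, and at -0.26 in WT LPS replicate 6 against -0.10 to 0.00 in the other 6.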

How the results depend on the processing

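For named genes under alternatives other than leaving out 1 array, 383 values kept their direction and side of the threshold, 15 lost their call and 6 changed sign. With 1 array left out 802 kept both, 32 lost their call, 1 gained it and 1 changed sign. Many of these values belong to genes not called in the main fit, which had no call to lose. The 15 losses fell on Mrpl2 between genotypes after LPS (8 of 13 alternatives), and on Mrpl20 (4 of 8) and Mrpl4 (3 of 8) between blocks. Over all 35 alternatives, Mrpl2 lost its call between genotypes after LPS in 26. For IL-6 KO against WT after LPS, the count of members called was 0 in place of 1 with the block as a term, within arrays 1 to 11, within arrays 12 to 22, with a linear array number, with only the groups compared, with the probe set of largest SD, with only genes above the median SD and without the 6 arrays with choroid plexus or pituitary genes. It was 8 with array weights (3.08% of all genes called), and 0 to 3 when 1 array was left out (0.01% to 0.236%). The median over members in that comparison was -0.014 within arrays 1 to 11. For LPS in IL-6 KO, arrays 1 to 11 alone gave 1 called member (0.727% of all genes) and a median of -0.081, and the median LPS effect in IL-6 KO minus that in WT was -0.078 in arrays 1 to 11 and 0.093 in arrays 12 to 22. Leaving out 1 array gave 17 to 31 called members between blocks, with 16% to 22.4% of all genes called. Apart from Mrpl2 after saline, the differences that changed sign were small. Mrpl2 with LPS in IL-6 KO was -0.023 in arrays 12 to 22 and -0.007 with array weights. Without IL-6 KO saline replicate 1 it was -0.041, in a range of -0.041 to 0.068 with 1 array left out. Mrpl2 between genotypes after saline was -0.12 in arrays 1 to 11, against 0.061 in the main fit. Those arrays hold 1 IL-6 KO saline and 3 WT saline arrays. Mrpl14 between genotypes after saline was 0.005 in arrays 12 to 22. Mrpl40 between genotypes was 0.016 without the block and 0.039 in arrays 12 to 22. The cause was not tested. Between blocks, the call of Mrpl20 was lost without IL-6 KO saline replicate 1 (adjusted p = 0.194), WT LPS replicate 7 (0.0958) or WT saline replicate 4 (0.0517), and that of Mrpl4 in 9 of 22 such fits, without IL-6 KO LPS replicate 2 or 3, IL-6 KO saline replicate 1, WT saline replicate 1, 2 or 4 or WT LPS replicate 4, 6 or 7 (0.0501 to 0.0972). No paired analysis was possible because replicates were numbered in accession order and pair no arrays. Within a block some groups have 1 or 2 arrays, and the centred values do not show which genes are near background.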
